A study of Mus musculus with 4 samples.

Results

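Cadherins are calcium-dependent adhesion proteins that join neighbouring cells through their extracellular domains. The cytoplasmic tail of the classical members binds catenins, which tie the junction to the actin cytoskeleton. In pancreatic islets E-cadherin and N-cadherin are known for holding the endocrine cells together, whereas other family members mark connective tissue, vessels or ducts. A set of 8 cadherin genes was followed here among the 24940 genes of the deposited table, and all 8 symbols matched 1 row each. Cdh1, Cdh2, Cdh3 and Cdh4 encode type I classical cadherins, and Cdh6 and Cdh11 encode type II classical cadherins. Cdh13 and Cdh17 are not classical in structure, since T-cadherin (Cdh13) is held in the membrane by a lipid anchor and LI-cadherin (Cdh17) has only a short cytoplasmic tail. The genes were picked by symbol and chosen by their control-against-knockdown values in these same libraries, so those values are given as a description, without p-values.

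RNA was sequenced from islets, the endocrine cell clusters of the pancreas, of male mice 3 to 4 months old that ate a low-fat chow. The controls (replicates 1 and 2) were non-transgenic, and replicates 3 and 4 were Tafazzin-knockdown mice. Tafazzin is the mitochondrial enzyme that remodels the phospholipid cardiolipin. Each library pooled about 300 islets of 2 to 3 mice, so that the spread within a group is that between 2 pools. How Tafazzin was knocked down is not given in the sources used here, and effects of a transgene and of Tafazzin loss cannot be told apart with non-transgenic controls.

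Each value gives reads per 10000000 library reads, called units here. The libraries held 68823160 to 81073502 reads, but 41.6% to 42.6% of them lay in the row of the ribosomal RNA precursor, and 4320910 to 4962798 reads lay outside the 13 rows that dominate the table. Recovered counts of 1 to 4 reads were even numbers in 81.6% to 83.6% of cases, as when both ends of a fragment are counted. Counting error was therefore taken from read pairs, with 2 reads counted as 1 pair. Reads appear to be counted over the whole gene, introns included and without regard to strand. The ground for this was 289 cases where a single-copy gene with at least 20 reads lay inside a gene of the opposite strand. In all of them (100%) the outer gene held at least as many reads. No other row of the table overlapped any of the 8 cadherin genes. No stretch of 31 bases was shared between annotated transcripts of different members in any of the 28 pairs. The Tafazzin gene, Taz, stood at 23.1 and 15.4 units in control islets, and 13.8 and 12.7 after knockdown, in the direction of the labels but without passing the test (a log2 fold change of -0.65 ± 0.25 SE, with a limma adjusted p = 0.529). The libraries held the hormone genes of islets, with Ins2 at 46108 to 58452 units and Gcg at 5422 to 6652.

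In these islets Cdh6 stood apart from the other cadherins. It went from 1.16 and 0.493 units in the controls to 17.2 and 8.39 in the knockdown libraries, while the abundant Cdh1 and Cdh2 moved little relative to all genes. Of the 6 members with enough reads to be tested, 1 (Cdh6) was called higher and 0 were called lower by limma at an adjusted p of 0.05, beside 2.49% of all 13531 tested genes called higher and 0.0443% called lower. The other 2, Cdh3 and Cdh17, had means below 1 unit and were not tested. Cdh6 was also the only member called after median-ratio scaling (1.12% of all genes higher, 0.155% lower), by edgeR (1.24% and 0.133%) and by DESeq2 (0.626% and 0.0829%). Since the choice of genes drew on this comparison, nothing is read from these counts. Log2 fold changes are given relative to the median of all tested genes, which was 0.17 on the deposited scale and -0.00461 after median-ratio scaling.

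**Figure D1:**
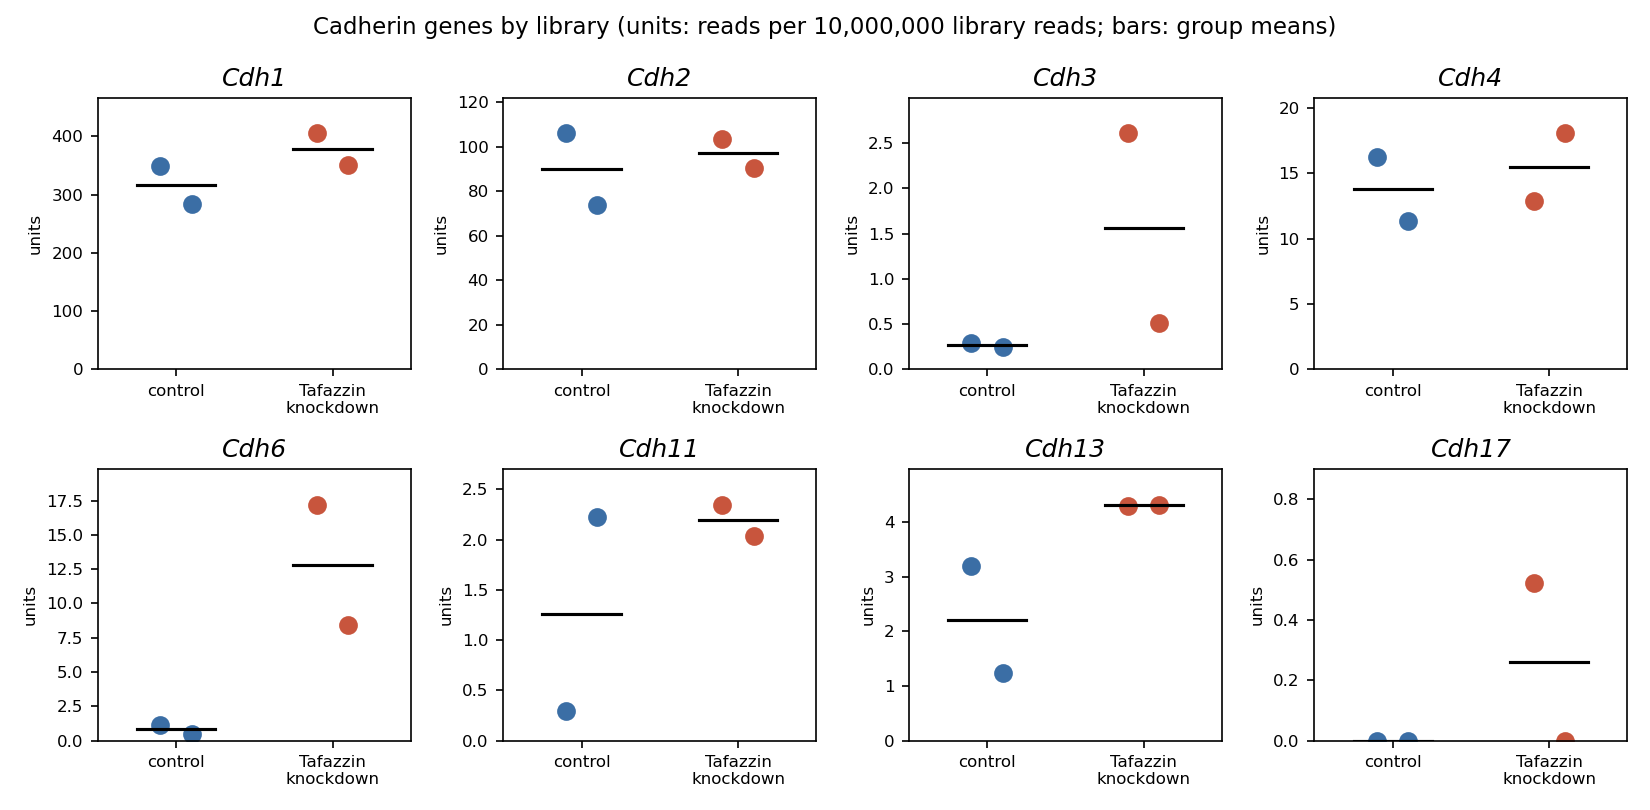
Value of each cadherin gene in units (reads per 10000000 library reads; linear axes from 0, a different range in each panel) in the 2 control (blue) and 2 Tafazzin-knockdown (red) libraries, with bars at the group means. The knockdown libraries of Cdh6, at 17.2 and 8.39 units, lie far above its controls at 1.16 and 0.493, whereas the groups of Cdh2, Cdh4 and Cdh11 overlap.

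The result turns on Cdh6, so the bases before its transcription start are shown. Of the members, 1 (Cdh6) was in the RefSeq promoter table used, on build GRCm38.p6. The stretch covers the 250 bases upstream of the start on the minus strand, at chr15:13173676-13173925. Capitals mark the only match to CANNTG, the E-box core that repressors of the Snail, Zeb and Twist families bind, read on both strands where it has the same outline.
Cdh6 promoter: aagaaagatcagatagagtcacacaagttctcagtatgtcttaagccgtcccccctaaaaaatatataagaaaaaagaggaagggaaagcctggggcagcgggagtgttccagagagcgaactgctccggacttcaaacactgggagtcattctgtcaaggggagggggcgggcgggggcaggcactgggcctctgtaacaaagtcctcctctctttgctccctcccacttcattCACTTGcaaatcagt
The match, CACTTG, begins 15 bases before the start. A match to CANNTG occurs in 66.2% of the 32851 promoter stretches of the same length, and the form CAGGTG or its reverse complement CACCTG, a special case of the former, in 17.2%. Neither CAGGTG nor CACCTG is in these 250 bases. The stretch holds 51.2% G and C, against a median of 52.4% over the table.

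Cdh6, K-cadherin, is a type II cadherin known from the developing kidney. The gene spans 15:13028699 to 13173675 on mm10 (minus strand, NM_007666). Its values rest on 8 and 4 reads in control islets, and 132 and 66 reads after knockdown. Both knockdown libraries lay above both controls, and knockdown replicate 3 was the highest of the 4. Control islets averaged 0.828 ± 0.473 units and knockdown islets 12.8 ± 6.24 (SD, n = 2 each). The control mean is below the 1 unit needed for testing, so Cdh6 was tested only through its knockdown values. The log2 fold change was 2.70 ± 0.33 SE on the log2(value + 1) scale, which understates the change of a gene this low in the controls. On the scale of edgeR it was 3.79. In read pairs, 6 in the controls and 99 in the knockdown libraries, the ratio was 15.9, with an exact 95% interval from 7.06 to 44.4 that covers counting error only. This interval and those given below for Cdh3 and Cdh13 pool the libraries of a group and leave out the spread between them. They are descriptions and no tests, since the genes were chosen on these same values. Cdh6 was not called when low genes were left in the fit, where limma called 0 genes in all (1484 had an unadjusted p under 0.05). Without knockdown replicate 3 its log2 fold change was 2.23, and without knockdown replicate 4 it was 3.16. With 1 library left out, the lone library of its group is assumed to vary like the other group.

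Markers of 3 other cell types were higher in the same libraries. In bulk tissue more cells of a type and more RNA per cell cannot be told apart. Of all tested genes limma called 2.49% higher and 0.0443% lower, and DESeq2 called 0.626% and 0.0829%. Of 17 markers of stellate cells and fibroblasts, the connective-tissue cells of the pancreas, 12 were called higher and 0 lower by limma. Lum, 1 of these 12, stood at 0.581 and 0.74 units in control islets and was tested only through its knockdown values. The summed value of the 17 markers was 164 and 167 units in control islets, and 546 and 397 after knockdown. None of the 17 was at 0 in any library. Of 14 tested endothelial markers 6 were called higher, with sums of 184 and 154 against 370 and 278 units and none of the 15 listed at 0. Of 14 tested duct markers 7 were called higher, with sums of 914 and 965 against 1817 and 1189 units, and only Cftr was at 0 in any library. Without knockdown replicate 3 limma called fewer genes higher, in each of these 3 lists and over all tested genes. With all libraries DESeq2 called 8, 3 and 3 markers of the 3 lists higher. Acinar markers, of the enzyme-secreting cells, did not follow: 0 of 15 tested had a log2 fold change above 0 once the overall median was subtracted, and their sums were 3387 and 6966 units in control islets against 5944 and 2808 after knockdown. Of 6 tested macrophage markers 1, Lyz2, was called higher and lay above that median.

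Cdh6 differed between the groups by more than these sums did, but it was singled out for its difference, so nothing is read from that. Single markers of stellate cells and fibroblasts had log2 fold changes from 0.49 to 2.57. Endothelial markers ran from 0.46 to 1.39 and duct markers from 0.000944 to 2.02, beside 2.70 for Cdh6. For each 100 units of summed stellate and fibroblast markers, Cdh6 stood at 0.707 and 0.295 units in control islets, and 3.15 and 2.11 after knockdown. Per 100 units of endothelial markers the values were 0.631 and 0.319 against 4.65 and 3.02, and per 100 units of duct markers 0.127 and 0.0511 against 0.948 and 0.706. For each list both knockdown libraries lay above both controls. The part of these cell types in the difference of Cdh6 was not tested.

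**Figure D2:**
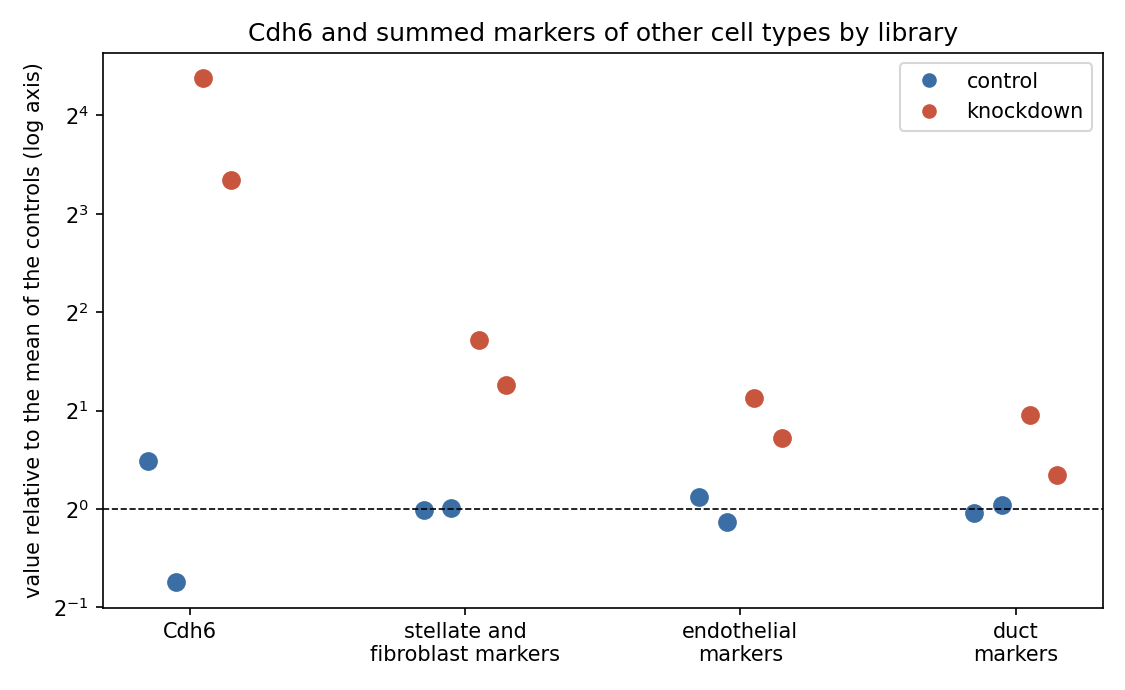
Cdh6 and the summed marker genes of 3 cell types (stellate and fibroblast, endothelial, duct) in each library, divided by the mean of the 2 controls (log axis; blue, control; red, knockdown; dashed line, mean of the controls). All 4 quantities are higher in both knockdown libraries, and the knockdown values of Cdh6 (17.2 and 8.39 units) lie farthest above its control mean of 0.828.

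Of all tested genes, those whose profile over the 4 libraries was nearest to that of Cdh6 were Fn1, Selp and Fbln2. Nearness was the root mean square difference of log2(value + 1) after centring each gene on its own mean, which was 0.133, 0.223 and 0.303 for the 3 genes. Fn1, which encodes the matrix protein fibronectin, stood at 2.91 and 2.22 units in control islets, and 29.5 and 16.3 after knockdown. Selp, the adhesion receptor P-selectin, stood at 4.36 and 4.19 against 53.2 and 21.1 units and overlaps Gm16548, whose row holds 0.254 of its level. Fbln2, the matrix protein fibulin-2, stood at 4.21 and 5.43 against 52.9 and 26.5 units. Fn1 and Fbln2 are also in the list of stellate and fibroblast markers. No tested gene came within 0.1 of Cdh6.

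Cdh1, E-cadherin, is the adhesion molecule of epithelial and endocrine cells. It had the highest level per kb of span of the members in every library, and its values were 349 and 284 units in control islets, and 405 and 351 after knockdown. The higher control and the lower knockdown library were nearly equal, and after median-ratio scaling the groups overlapped, at 336 and 335 against 377 and 332. Control islets averaged 316 ± 45.6 units and knockdown islets 378 ± 38.2 (SD, n = 2 each). The log2 fold change was 0.09 ± 0.22 SE and the gene was not called. It was called higher when control replicate 1 was left out, at a log2 fold change of 0.11, where 9.36% of all tested genes were called higher. The counts were 2400 and 2304 reads in control islets, and 3106 and 2760 after knockdown. On mm10 the gene lies on chromosome 8 (106603350 to 106670247, plus strand, NM_009864).

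Cdh2, N-cadherin, the other main cadherin of endocrine islet cells, stood at 106 and 73.8 units in control islets, and 104 and 90.4 after knockdown. Both knockdown values lay between the controls, and the log2 fold change was -0.04 ± 0.24 SE. The ratio of the value of Cdh1 to that of Cdh2, which does not depend on depth, was 3.29 and 3.85 in control islets, against 3.91 and 3.88 after knockdown. The ratio was lowest in control replicate 1 and alike in the other 3 libraries. Together the 2 genes made up 95.5% and 95.8% of the summed value of the 8 members in control islets, against 92.7% and 93.0% after knockdown. The share of Cdh6 in that sum was 0.244% and 0.132% in control islets, and 3.14% and 1.77% after knockdown.

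Cdh4, R-cadherin, first described in retina, stood at 16.3 and 11.3 units in control islets, and 12.9 and 18.1 after knockdown. The groups overlapped and the log2 fold change was -0.01 ± 0.26 SE. For Cdh2 and Cdh4 the sign of this difference is not settled, since single libraries left out moved it between -0.16 and 0.09 for Cdh2 and between -0.25 and 0.23 for Cdh4. Cdh2 lies on chromosome 18, and Cdh4 on chromosome 2 (179442431 to 179899375, plus strand).

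Cdh3, P-cadherin, an epithelial cadherin of basal cell layers, lies beside Cdh1 on chromosome 8 (106510852 to 106556911, plus strand). It ends 46.4 kb before Cdh1 begins, with 1 other row of the table between them. Its values were 0.291 and 0.247 units in control islets, and 2.61 and 0.509 after knockdown. These rest on 2 and 2 reads against 20 and 4 reads, and only knockdown replicate 3 exceeded 3 read pairs (0.740 to 0.872 units, depending on the library). In read pairs the ratio was 5.79, with an exact 95% interval from 1.29 to 53.3 for counting error only. Per kb of span, the level of Cdh3 was orders of magnitude below that of Cdh1 in every library.

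Cdh11, OB-cadherin, is a type II cadherin of mesenchymal cells such as fibroblasts and bone-forming cells. It stood at 0.291 and 2.22 units in control islets, and 2.35 and 2.04 after knockdown. Control replicate 1 was low, on 2 reads, and the other 3 libraries were alike at 16 to 18 reads, so that the groups overlapped. The log2 fold change was 0.48 ± 0.44 SE. It was 1.27 without control replicate 2 and -0.32 without control replicate 1, and the gene was called in neither case. The summed stellate and fibroblast markers were at 164 and 167 against 546 and 397 units in the same libraries, and their part in the value of Cdh11 was not tested. The gene lies on chromosome 8 (102632095 to 102785111, minus strand).

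Cdh13, T-cadherin, is known as a receptor of the adipose hormone adiponectin on vessel walls. It stood at 3.20 and 1.23 units in control islets, and 4.30 and 4.32 after knockdown. Both knockdown libraries lay above both controls, also after scaling, and the controls differed from each other more than the nearer control differed from the knockdown. The log2 fold change was 0.63 ± 0.36 SE and the gene was not called. In read pairs, 16 against 34, the ratio was 2.05, with an exact 95% interval from 1.10 to 3.98 for counting error only. The gene spans 1041 kb of chromosome 8 (118283611 to 119324927, plus strand), the longest of the 8, and reads from its introns would be included.

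Cdh17, LI-cadherin of liver and intestine, had 0 reads in both controls and in knockdown replicate 4 and had 4 reads, 0.522 units, in knockdown replicate 3, which is under 3 read pairs. A count of 0 read pairs allows up to 0.872 and 0.740 units in the controls and 0.763 in knockdown replicate 4. The groups could not be told apart at this depth, and no fold change is given.

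Both knockdown libraries lay above both controls in 3 of the 6 tested members, Cdh1, Cdh6 and Cdh13, and both lay below in 0 of them. Of all tested genes 34.9% had the first order and 4.49% the second. With the untested Cdh3 the first order held in 4 of 8 members, against 22.2% of all genes of the table. After scaling it held in 2 of the 6, Cdh6 and Cdh13, where 20.4% of all tested genes lay above and 20% below.

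Compared per kilobase of gene span, the levels in the controls ran from Cdh1 at 4.73 ± 0.682 units per kb through Cdh2 at 0.408 ± 0.103 and Cdh4 at 0.0302 ± 0.00762 (SD, n = 2). Cdh11, Cdh3, Cdh6 and Cdh13 followed, at 0.00820 ± 0.00891, 0.00584 ± 0.000675, 0.00571 ± 0.00326 and 0.00213 ± 0.00133 units per kb. Cdh1, Cdh2 and Cdh4 differed from each other by more than the spread of their libraries, whereas Cdh11, Cdh3 and Cdh6 overlapped. In the knockdown libraries Cdh6, at 0.0883 ± 0.0430 units per kb, stood next after Cdh2 and above Cdh4 at 0.0339 ± 0.00797, and the libraries of these 2 genes did not overlap. Per kilobase of annotated exon instead, the knockdown mean of Cdh4 was above that of Cdh6, at 2.13 ± 0.502 and 1.42 ± 0.691 units per kb. The libraries of the 2 genes overlapped on that measure. Knockdown replicate 3 had Cdh4 at 1.78 and Cdh6 at 1.91, and replicate 4 had them at 2.49 and 0.930. Cdh1 and Cdh2 kept their places. The order of the knockdown means of Cdh4 and Cdh6 therefore depends on which length is used. So does the order of Cdh11, Cdh3, Cdh6 and Cdh13 in the controls. Per kb of exon Cdh13 came first of these in the controls, at 0.197 ± 0.124 units per kb. Cdh11, Cdh6 and Cdh3 followed, at 0.141 ± 0.153, 0.0917 ± 0.0524 and 0.0614 ± 0.00710.

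**Figure D3:**
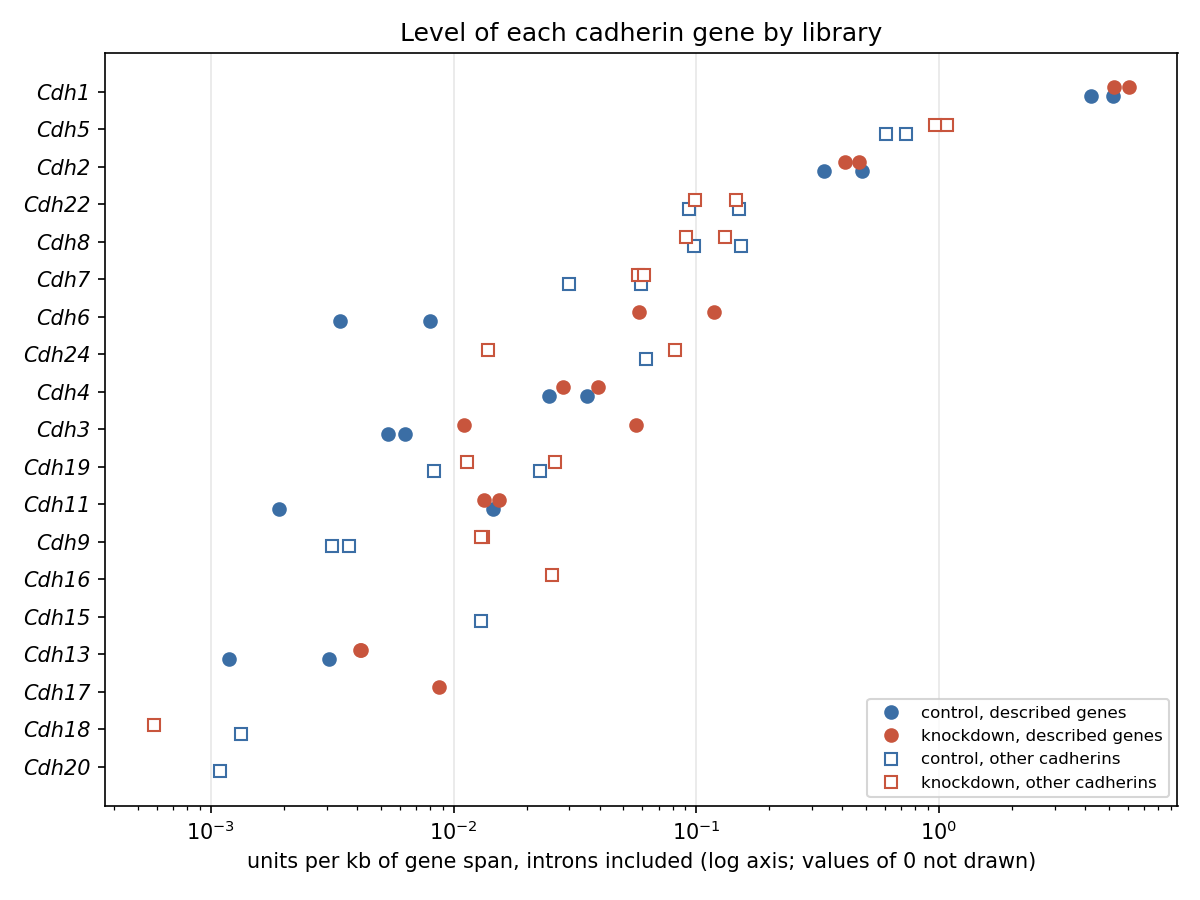
Level of each cadherin gene in units per kb of gene span (log axis; values of 0 not drawn), for the 8 described genes (filled circles) and the other cadherins with any reads (open squares), in control (blue) and knockdown (red) libraries. Cdh1 lies highest, the 2 control values of Cdh6 lie well below its knockdown values, and the groups of most other genes lie close together or overlap.

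The rest of the family was followed with a list of 14 other cadherin genes. Of these 5 had enough reads to be tested, 0 were called by limma, edgeR or DESeq2, and the unadjusted p of 1 (Cdh5) was under 0.05. Their median log2 fold change was 0.01. Of all 13531 tested genes, limma called 2.49% higher and 0.0443% lower, and 1400 had an unadjusted p under 0.05. Cdh5, VE-cadherin of endothelial junctions, stood at 31.4 and 25.9 units in control islets, and 46.2 and 41.3 after knockdown (a log2 fold change of 0.43 ± 0.25 SE, with a limma adjusted p = 0.257). It was called higher without control replicate 1 (limma adjusted p = 0.00528). Both its knockdown libraries lay above both controls, as did the summed endothelial markers. Per kb of span it reached 0.844 units over the 4 libraries, between Cdh1 at 5.19 and Cdh2 at 0.424. Cdh8, a type II cadherin of neurons, stood at 59.7 and 38.2 against 35.5 and 51.4 units. Cdh22 and Cdh7 had overlapping groups as well, at 18.5 and 11.5 against 18.0 and 12.2 units and at 9.30 and 4.69 against 8.998 and 9.54. Cdh10, Cdh12 and Cdh26 had 0 reads in every library.

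The catenins, which anchor cadherins inside the cell, and the other genes listed with them, nectins included, were not called. Of 16 tested genes 0 passed by limma, edgeR or DESeq2, with 4 at an unadjusted p under 0.05, and the median log2 fold change was 0.17. Over the whole table limma called 2.49% of 13531 tested genes higher, and 1400 of the 13531 had an unadjusted p under 0.05. Ctnnb1, beta-catenin, stood at 347 and 266 units in control islets, and 399 and 366 after knockdown (0.17 ± 0.22 SE, limma adjusted p = 0.700). Ctnnd1, p120-catenin, which holds cadherins at the cell surface, stood at 139 and 118 against 161 and 163 units (limma adjusted p = 0.715). Ctnna1, alpha-catenin, the link to actin, stood at 111 and 89.8 against 141 and 119 units (limma adjusted p = 0.649). Pkp4, a relative of p120-catenin, stood at 89.5 and 68.0 against 110 and 112 units (limma adjusted p = 0.401). Both knockdown libraries lay above both controls in 10 of the 16, where 34.9% of all tested genes did. Without control replicate 1, 9 of the 16 were called higher, Ctnnb1, Ctnnd1, Ctnna1 and Pkp4 among them, where 9.36% of all tested genes were.

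Of the desmosome genes, whose cadherins bind intermediate filaments in place of actin, 6 were tested, 0 were called by limma, edgeR or DESeq2, with 1 at an unadjusted p under 0.05. The table as a whole had 1400 of 13531 tested genes under that p, with 2.49% called higher by limma. Dsp, desmoplakin, stood at 129 and 85.5 against 106 and 109 units, and Dsg2, a desmosomal cadherin, at 44.0 and 37.9 against 49.3 and 52.8 units. Dsc2, another desmosomal cadherin, had overlapping groups, at 14.7 and 10.1 against 13.3 and 11.96 units. Pkp2, a plakophilin, stood at 8.14 and 6.17 against 13.3 and 13.6 units (a log2 fold change of 0.67 ± 0.27 SE, with a limma adjusted p = 0.0615), and was called higher without control replicate 1. Dsg2 overlaps Gm16090, whose row holds 0.645 of its level.

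Among the transcription factors listed as repressors of cadherin genes, most of which bind E-boxes, limma called 1 of 6 tested genes higher and 0 lower. Of all tested genes it called 2.49% higher and 0.0443% lower. Both knockdown libraries lay above both controls in 5 of the 6, where 34.9% of all tested genes did. Zeb2, a zinc-finger repressor of Cdh1, rose from 3.49 and 3.95 units to 18.3 and 8.14 (a log2 fold change of 1.33 ± 0.28 SE, with a limma adjusted p = 3.03e-05). By edgeR its adjusted p was 0.0172 and after median-ratio scaling it was 0.0233. The call of Zeb2 was lost without knockdown replicate 3 (limma adjusted p = 0.787), with low genes left in the fit (0.203) or by DESeq2 (adjusted p = 0.0637). Snai1, the repressor Snail, stood at 2.03 and 2.22 against 6.52 and 4.07 units (limma adjusted p = 0.121, and called higher by limma without the mean-variance trend). Zeb1, Tcf3 and Tcf4 were not called, with limma adjusted p of 0.698, 0.649 and 0.571. Tcf4 was called higher without control replicate 1 (limma adjusted p = 0.00128). Snai2, Snai3, Twist1 and Twist2 had means below 1 unit and were not tested. Klf8, a Krüppel-like factor and no E-box binder, named after its values were seen, stood at 4.07 and 2.71 against 3.13 and 1.78 units (limma adjusted p = 0.863). Cdh1 itself, the best known target of these repressors, had a log2 fold change of 0.09 in the same libraries. An effect of the repressors on Cdh1 was not tested. The stellate, endothelial and duct marker sums given above were higher in the knockdown libraries as well, and their part in the values of Zeb2, and of Mmp14 and Mmp7 described next, was not tested.

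Of the genes listed for the cleavage and turnover of cadherins, limma called 2 of 11 tested genes higher and 0 lower, beside 2.49% and 0.0443% of all tested genes. Both knockdown libraries lay above both controls in 6 of the 11, where 34.9% of all tested genes did. Mmp14, a membrane-bound matrix metalloprotease, rose from 8.14 and 11.3 units to 35.2 and 22.1 (a log2 fold change of 1.28 ± 0.25 SE, with a limma adjusted p = 3.12e-06, edgeR adjusted p = 0.00322). The call of Mmp14 was lost without knockdown replicate 3 (limma adjusted p = 0.301) or with low genes left in the fit (0.111). Mmp7, matrilysin, stood at 0 and 1.73 against 3.91 and 4.71 units (limma adjusted p = 0.00357). Its control mean of 0.864 is below the 1 unit needed for testing, so it was tested only through its knockdown values. Scaling ended the call of Mmp7 (limma adjusted p = 0.116), as did edgeR (adjusted p = 0.275), DESeq2 and low genes left in the fit. It was also not called without control replicate 1 (limma adjusted p = 0.142) or either knockdown replicate (0.127 and 0.111), and it overlaps AV064505, whose row holds 0.571 of its level. Adam10, the main protease that sheds E-cadherin and N-cadherin, stood at 70.9 and 58.5 against 82.0 and 69.4 units (a log2 fold change of 0.06 ± 0.24 SE, with a limma adjusted p = 0.875). Adam9 and Adam15, related proteases of the cell surface, were not called either, with log2 fold changes of 0.01 and 0.18.

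**Figure D4:**
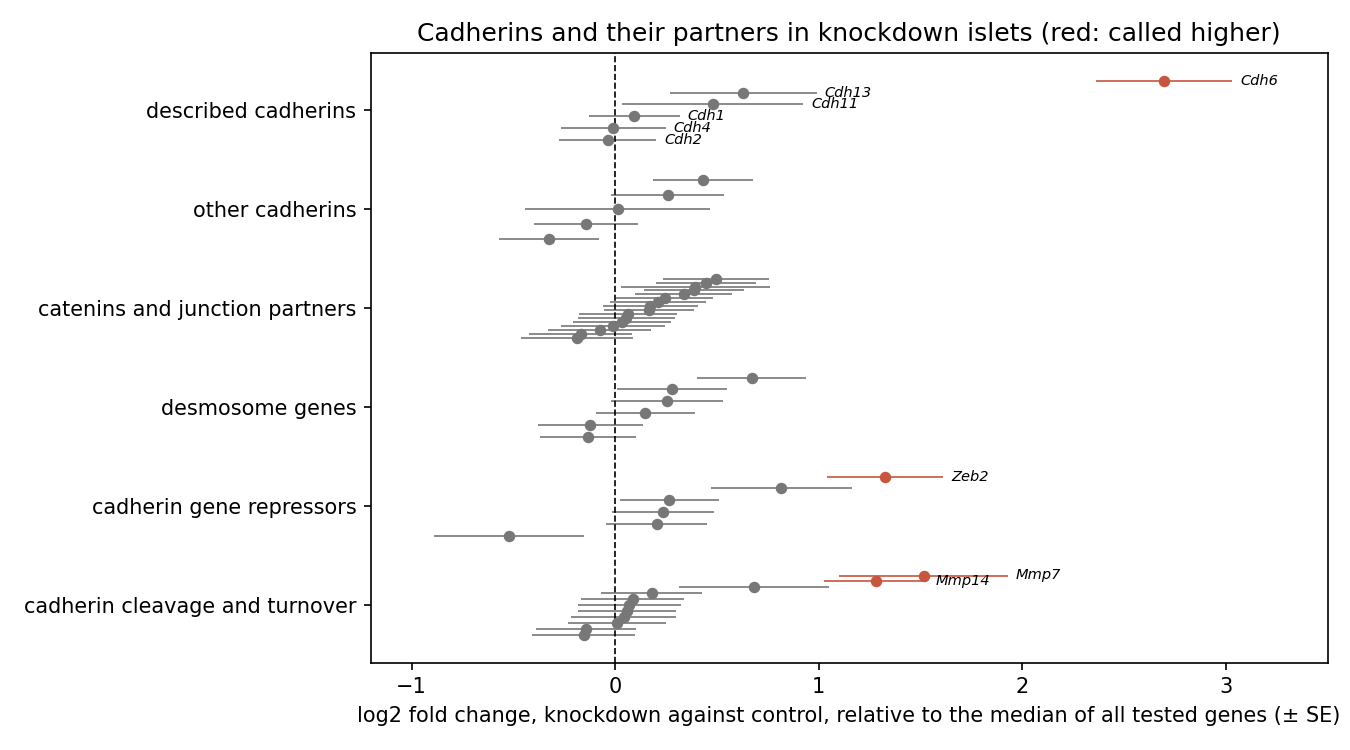
Log2 fold change of each tested gene (point, with bar ± SE), knockdown against control, relative to the median of all tested genes (dashed line), for the described cadherins and 5 lists of related genes. Cdh6 at 2.70 lies farthest to the right, and Zeb2, Mmp7 and Mmp14 are the other genes called higher (red).

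Many genes shared the profile of Cdh1 over the libraries. Its 3 nearest genes were Tmem185b, Nipsnap2 and Med16, at root mean square differences of 0.00441, 0.0109 and 0.0124, and 1742 of the tested genes came within 0.1 of it. Tmem185b stood at 12.2 and 9.74 units in control islets, and 14.2 and 12.2 after knockdown. Nipsnap2 stood at 41.8 and 34.0 against 49.0 and 43.0 units, and Med16, which overlaps the far more abundant Bc1, at 24.7 and 20.5 against 29.2 and 25.2. In all 3, as in Cdh1, control replicate 2 was the lowest library and knockdown replicate 3 the highest.

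**Figure D5:**
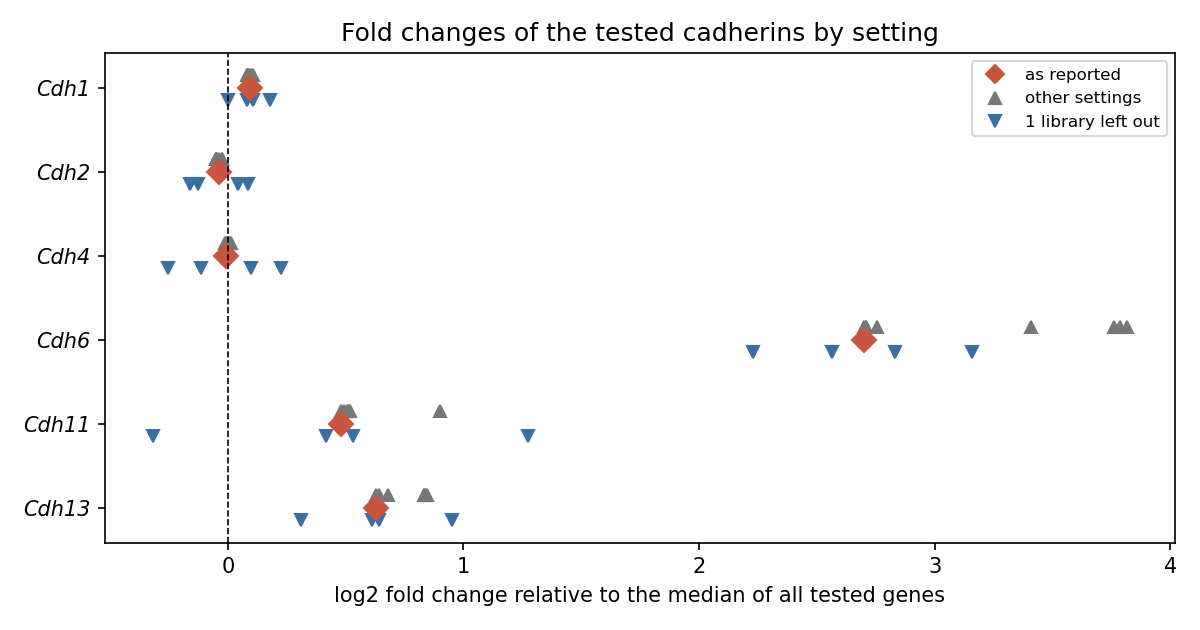
Log2 fold change of the 6 tested cadherins relative to the median of all tested genes, as reported (red diamonds), under other settings (grey triangles) and with 1 library left out (blue triangles). Cdh6 stays between 2.23 and 3.81, whereas Cdh1 (barely), Cdh2, Cdh4 and Cdh11 lie on both sides of 0 when single libraries are left out.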

How the data were processed

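Islet total RNA was depleted of ribosomal RNA and made into directional, randomly primed libraries, per the labels' protocols. Per the submitters' processing notes the tools were STAR 2.5.1b, HOMER 4.9 and edgeR and the build mm10, with no role given. Although named FPKM, the deposited signal is in reads per 10000000 library reads and is not divided by length. Reads were recovered, since 100% of values in each library came within 0.01 reads of a whole count. The counted region is not given in the sources used here. The length given for a gene equals its span in 99.5% of rows.

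Genes averaging 1 unit or more, and 200 bases or longer, entered a two-sided limma 3.58.1 fit (R 4.3.3) of log2(value + 1) with a mean-variance trend, and Benjamini-Hochberg adjustment at 0.05. Its prior degrees of freedom were infinite, so every gene took its spread from the trend. The average for entry was taken over all 4 libraries. Cdh6, Mmp7 and Lyz2, with control means of 0.828, 0.864 and 0.984 units, entered only through their knockdown values. Among the listed markers so did Lum, Acta2 and Sox10, of which limma called only Lum. The p-values refer to changes before the median was subtracted. The permutation test cannot go below p = 0.333 with 2 libraries against 2, and no such p is given. As alternatives, edgeR 4.0.16 called 168 genes higher and 18 lower on recovered reads, and DESeq2 1.42.0 called 83 and 11. The scripts were tested on simulated data. Exact intervals are Clopper-Pearson intervals from scipy 1.17.1. Exon lengths and transcripts come from GENCODE M21 on the same build.

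The members and lists were chosen with earlier results of these data known. Named genes are all members, the called and the 4 highest genes of each related list, up to 3 markers per cell type, Taz and the nearest profiles. Of the genes under this rule, 1 is not reported here. Of the other marker lists, acinar markers had 0 of 15 tested members called by limma, edgeR and DESeq2 (1 with an unadjusted p under 0.05), macrophage markers 1 of 6 (Lyz2, higher), and Schwann markers 0 of 5 by all 3 tools (1 with an unadjusted p under 0.05). Beta cell markers had 0 of 13, alpha cell markers 0 of 7, and delta and PP cell markers 0 of 5, by limma and edgeR (DESeq2 called 1 beta cell marker lower and 0 of the others), with 0, 0 and 1 at an unadjusted p under 0.05.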

Additional observations from a re-analysis of the deposited data

How the results depend on the processing

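Over 12 alternatives, 1 of the members was called in 10, the same gene, Cdh6, which is no independent support since the members were chosen on these values. With no filter on low values 0 members and 0 genes were called. The number of members called ranged from 1 to 2 when 1 library was left out, the second being Cdh1 without control replicate 1. Over all genes limma called 343, against 172 after median-ratio scaling, 186 by edgeR on recovered reads, 179 by edgeR with 2 reads counted as 1 (added after seeing the data), 94 by DESeq2 and 544 without the trend. Leaving out 1 library gave 32 to 1303 calls, the lowest without knockdown replicate 3 and the highest without control replicate 1, with the lone library assumed to vary like the other group. The share of higher calls was 98.3% as reported, 87.8% after scaling, 90.3% by edgeR, 88.3% by DESeq2 and 86.0% without control replicate 2. The cause of these differences was not tested. Of the other named genes, 40 in all, 409 of 477 values under the alternatives kept their call and moved by less than their SE where not called, and 0 called values changed sign. No paired analysis was possible because the groups share no replicate number. Depth limits Cdh3, Cdh11 and Cdh17 most, with at most 20 reads in any library.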
